A study of Mus musculus with 21 samples.

Results

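The mouse mitochondrial genome carries 37 of the 52550 genes in the table of counts, taken here by the prefix mt- of their symbols. They are 2 rRNA genes, 22 tRNA genes and 13 protein genes, and 16 of them passed the filter on low counts: both rRNA genes, the 13 protein genes and the tRNA gene mt-Tp. RNA-Seq libraries were made from spiral ganglion neurons (SGNs) of the cochlea at 5 ages (E15.5, then P1 and P8, then P14 and P30), from hair cells (HCs) at P12 and from glial cells at P8. Each of these 7 groups had 3 replicates, which gave 21 libraries. All mice were C57BL/6 and carried a tdTomato reporter at Rosa26 that Cre recombinase switches on. SGNs came from ShhCre/+ mice and were picked by hand, with 69 to 195 cells per library. HCs came from cochlear and vestibular organs of Atoh1-CreER+ mice given tamoxifen at P0 and P1, with about 1200 cells per library, and the methods describe FACS for them while the labels describe manual sorting. Glial cells came from vGlut3-iCreER/+ mice given tamoxifen at P2 and P3, with 86 to 125 hand-picked cells per library. Age differs between the cell types except for the SGNs and glial cells of P8. Cell type, Cre line and tamoxifen, described for HC and glial mice only, cannot be told apart in these data. For HCs the same holds for pool size, organ of origin and the method of sorting. The labels do not say whether replicates came from separate animals, so the p-values measure only the spread between these libraries.

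The mitochondrial genome is a small circle transcribed from both of its strands into long precursors, which are cut at the tRNAs into rRNAs, mRNAs and tRNAs. Its 13 mRNAs encode subunits of 4 complexes of oxidative phosphorylation: the Nd genes of complex I, mt-Cytb of complex III, the Co genes of complex IV and the Atp genes of the ATP synthase. The other subunits, the proteins of the mitochondrial ribosome and the enzymes that copy and read the circle are encoded in the nucleus. Neurons that fire at high rates, SGNs among them, are known for a high demand on oxidative phosphorylation. In the annotation, 28 of the 37 genes lie on the + strand and 9 on the - strand. The 9 are mt-Nd6, a complex I subunit and the sole mRNA of its strand, and 8 tRNAs.

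What a count stands for depended on the gene, since parts of the mitochondrial genome also stand in nuclear DNA. Within chr1:24611535-24616197 (GRCm38, - strand), GENCODE M21 annotates a row of 7 unprocessed pseudogenes in which at least 50% of the 50-base words were identical to a mitochondrial gene. The first 60 bases of 3 genes and of their chromosome 1 copies are shown because a read within them fits both places, unless it covers a base that differs. Capitals mark a base that differs, and the only such base is T3C, counted from the first base of mt-Nd3.
mt-Co2: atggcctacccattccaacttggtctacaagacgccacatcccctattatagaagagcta
Gm28661: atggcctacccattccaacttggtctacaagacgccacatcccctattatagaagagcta
mt-Atp6: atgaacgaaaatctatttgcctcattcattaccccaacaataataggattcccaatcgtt
Gm10925: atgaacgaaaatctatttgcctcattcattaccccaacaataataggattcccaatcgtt
mt-Nd3: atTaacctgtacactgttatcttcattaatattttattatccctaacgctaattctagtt
Gm28438: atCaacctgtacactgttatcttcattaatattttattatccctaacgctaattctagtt

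Gm28661 equals mt-Co2 over 681 bases, Gm10925 equals mt-Atp6 over 678, and Gm28437 equals mt-Co3, the next gene, over 783. The counts of these 3 pairs lay almost wholly on the nuclear copy. Gm28661 held 98.2% to 99.6% of the counts of its pair over the 21 libraries, Gm10925 98.9% to 99.7%, and Gm28437 99.0% to 99.6%. Other pairs with the same identity divided differently. Gm10222 equals mt-Nd4l over 294 bases and held 0.21% to 3.47% of the pair, and Gm28439 equals 876 bases of mt-Nd4 and held 0.34% to 0.812%. Gm28438, which differs from mt-Nd3 by 1 of 345 bases, held 46.4% to 55.6%, and Gm29216, which covers 483 bases of mt-Co1 with 1 difference, held 15.3% to 22.7%. The multimapping setting of the counting is not stated, and the origin of a read that fits both places cannot be told apart from the counts. Levels of the copied genes are therefore given as deposited and with the counts of the copy added.

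**Figure D1:**
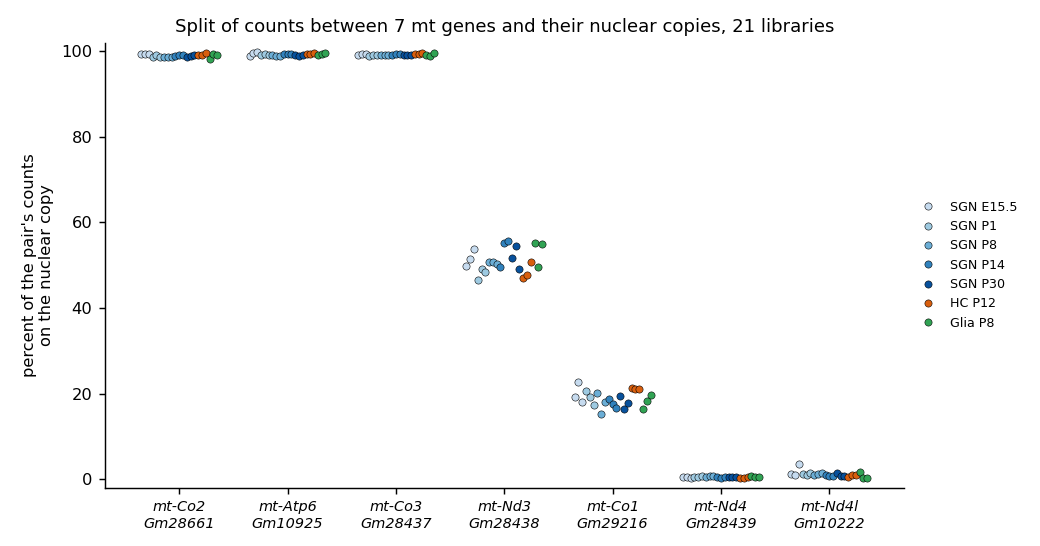
Percent of the counts of each pair that fell on the nuclear copy (y axis), for 7 mitochondrial genes and their chromosome 1 copies (x axis); each point is 1 of the 21 libraries, colored by group. The mt-Co2, mt-Atp6 and mt-Co3 pairs lie above 98%, mt-Nd3 lies between 46.4% and 55.6%, and mt-Nd4 and mt-Nd4l lie at 3.47% or lower.

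Some neighbors share bases within the mitochondrial genome. mt-Atp8 (chrM:7766-7969, + strand), the shorter of the 2 ATP synthase genes of the mitochondrial genome, is shown whole because its last 43 bases, in capitals, are also the first 43 bases of mt-Atp6.
mt-Atp8: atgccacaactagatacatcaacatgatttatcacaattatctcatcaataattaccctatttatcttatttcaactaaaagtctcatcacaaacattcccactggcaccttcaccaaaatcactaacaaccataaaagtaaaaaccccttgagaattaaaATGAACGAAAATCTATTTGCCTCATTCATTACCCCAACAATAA

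mt-Nd4l and mt-Nd4 share 7 bases in the same way, and mt-Nd5 and mt-Nd6 share 14 bases on opposite strands. The strand setting of the counting is also not stated, so counts on the 9 genes of the - strand can hold reads of either strand. mt-Atp8 has no annotated copy on chromosome 1, where 233 bases without a gene lie between the copies of mt-Co2 and mt-Atp6. It held 0 to 84 counts per library, the fewest of the protein genes. It exceeded 1 CPM (the counts of a gene scaled to the total counts of its library) in all replicates of the P8 SGNs and of no other group, so it entered the tests through a group in which it was high, and its fold changes and calls carry that choice.

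Total counts per library ranged from 10368240 to 37287489, and 3 counts, the limit that a count of 0 allows, equaled 0.0805 to 0.289 CPM. These limits and all counts carry amplification by PCR without molecular identifiers, and they cover counting error only. Markers followed the labels: the median level of 6 SGN markers was 47.2 to 124 CPM per kb in SGN libraries, 0.178 to 0.607 in HC libraries and 1.22 to 17.9 in glial libraries. Glial replicate 1 held the 17.9, against 1.38 and 1.22 in replicates 2 and 3. The 4 glial markers had a median of 192 to 226 CPM per kb in glial libraries and at most 14.7 in an SGN library (P14 replicate 1). By their sum, the P8 SGN libraries held the most among SGNs, with 366 to 492 CPM per kb against 4863 to 6442 in glial libraries. P1 replicate 2 and P14 replicate 1 had the most of 5 HC markers among SGNs, with medians of 18.6 and 16.2 against 154 to 164 in HCs.

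rRNA made up most of the mitochondrial counts. The 2 rRNA genes took 87.3% to 92.2% of the mitochondrial counts of a library, the 13 mRNAs 7.78% to 12.7%, and the 22 tRNAs 13 to 238 counts in all. mt-Rnr2, the 16S rRNA, had the highest count of any gene in 21 of 21 libraries. By mean share of counts, mt-Rnr1, the 12S rRNA, ranked 2 and mt-Co1 ranked 5 of all genes in the table.

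rRNA genes took 9.42%, 12.5% and 8.80% of all counts in the E15.5 libraries, replicates 1 to 3 in order, as in every list of 3 values here. The values were 14.7%, 16.6% and 17.6% at P1, and 18.1%, 20.4% and 19.5% at P8. They were 21.8%, 20.5% and 19.9% at P14 and 18.0%, 16.3% and 20.0% at P30. Every library from P1 on thus lay above every E15.5 library, while P30 overlapped P1, P8 and P14. HC libraries (8.33%, 9.31% and 8.73%) and glial libraries (12.3%, 10.3% and 9.34%) lay in the range of the E15.5 SGNs or just below it, and below every later SGN library.

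The mRNA share moved in the same direction. As deposited, it was 0.835%, 1.05% and 0.777% at E15.5, 1.72%, 2.11% and 1.94% at P1, and 2.43%, 2.18% and 2.20% at P8. It was 2.38%, 1.89% and 2.33% at P14 and 2.33%, 1.60% and 2.145% at P30. With the copies added, the group means were 1.14% ± 0.213, 2.43% ± 0.238, 2.83% ± 0.208, 2.75% ± 0.369 and 2.53% ± 0.507 from E15.5 to P30 (SD, n = 3 per age). Each of the 12 postnatal SGN libraries lay above the 3 of E15.5 on both scales. HC libraries held 1.21%, 1.31% and 1.08% as deposited and glial libraries 1.20%, 1.08% and 1.01%. The glial range overlapped the E15.5 SGNs, the HC range lay just above them, and both lay below every postnatal SGN library.

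The number of rRNA counts per mRNA count was highest at E15.5. It was 11.3, 11.9 and 11.3 in the E15.5 libraries, and no other library exceeded 10.9 (P14 replicate 2). HCs had the lowest ratios, 6.85, 7.11 and 8.08, and their highest value overlapped P1 replicate 2 (7.87), P8 replicate 1 (7.45) and P30 replicate 1 (7.70). Glial libraries, at 10.3, 9.56 and 9.27, lay within the range of the postnatal SGNs. With the copies added, the E15.5 libraries (8.87, 9.05 and 9.02) remained above the rest, the next being P14 replicate 2 at 8.80. These ratios are descriptions of the libraries and carry no test. The counts do not tell fewer transcripts in every cell from fewer cells that hold them.

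**Figure D2:**
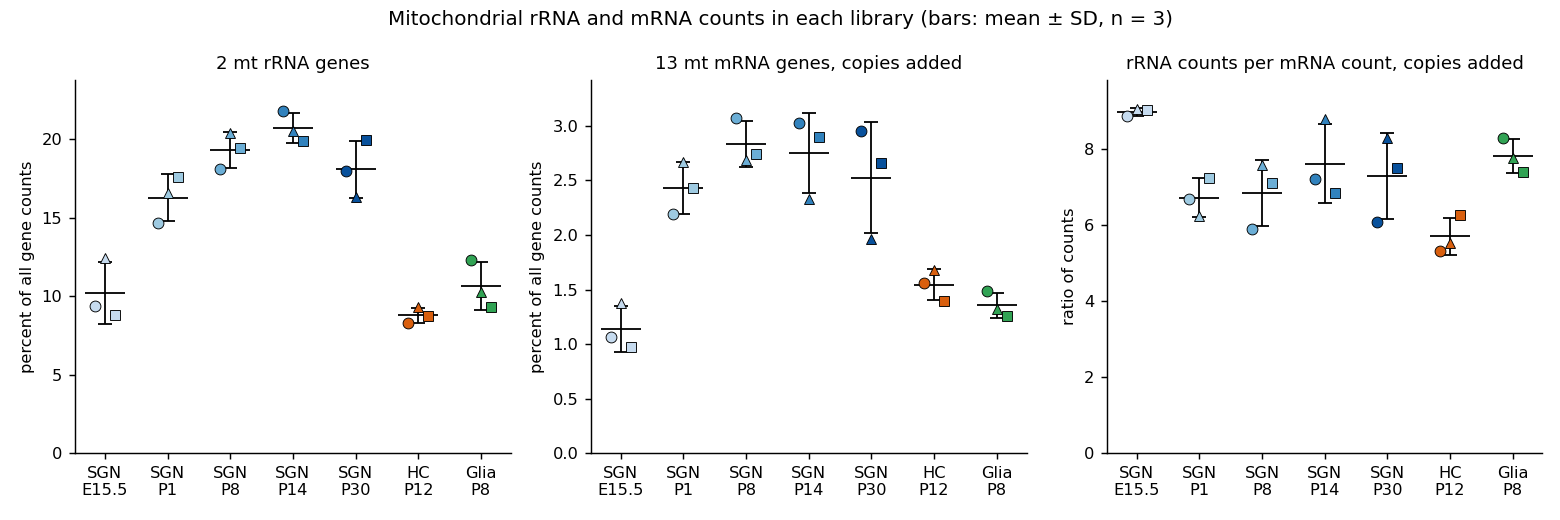
Percent of all gene counts on the 2 rRNA genes (left) and on the 13 mRNA genes with their nuclear copies (middle), and rRNA counts per mRNA count with copies (right), by group; points are libraries (circle, triangle and square for replicates 1 to 3) and bars give mean ± SD (n = 3). The E15.5 SGNs have the lowest shares among SGNs and the highest ratios, at 8.87 to 9.05.

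Levels per length differed widely among the mRNAs. On the scale of CPM per kb with copies added, mt-Co1, the core subunit of complex IV, was highest in all 7 groups, from 3874 ± 761 at E15.5 to 8999 ± 1053 at P8 (SD, n = 3). At P8 it was followed by mt-Cytb (2598 ± 787) and mt-Nd1 (2436 ± 144), whose libraries overlapped each other and those of the next gene. mt-Atp6 (1817 ± 719), mt-Nd4 (1775 ± 688), mt-Co2 (1448 ± 523), mt-Nd5 (1396 ± 337) and mt-Co3 (1247 ± 239.8) formed a run in which each neighbor overlapped the next. mt-Nd4l (612 ± 229), mt-Nd6 (557 ± 226) and mt-Nd2 (408 ± 269) overlapped one another below them. mt-Nd3 (136 ± 13.1) and mt-Atp8 (8.66 ± 2.53) lay below all of these in each P8 library. For mt-Atp8 no counts were added, since the bases between the copies of mt-Co2 and mt-Atp6 carry no annotated gene. Its place in this order is therefore that of its deposited counts. As deposited, mt-Co2 stood at 18.4 ± 6.13, mt-Atp6 at 16.8 ± 4.77 and mt-Co3 at 11.6 ± 1.97 CPM per kb at P8, closest to mt-Atp8. The 2 rRNAs stood far above the mRNAs, with 92581 ± 4217 for mt-Rnr2 and 48969 ± 5234 for mt-Rnr1 at P8. mt-Rnr2 held 2.52 to 3.55 counts for each count of mt-Rnr1 over the 21 libraries, and the SGN range covered the HC and glial ranges.

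**Figure D3:**
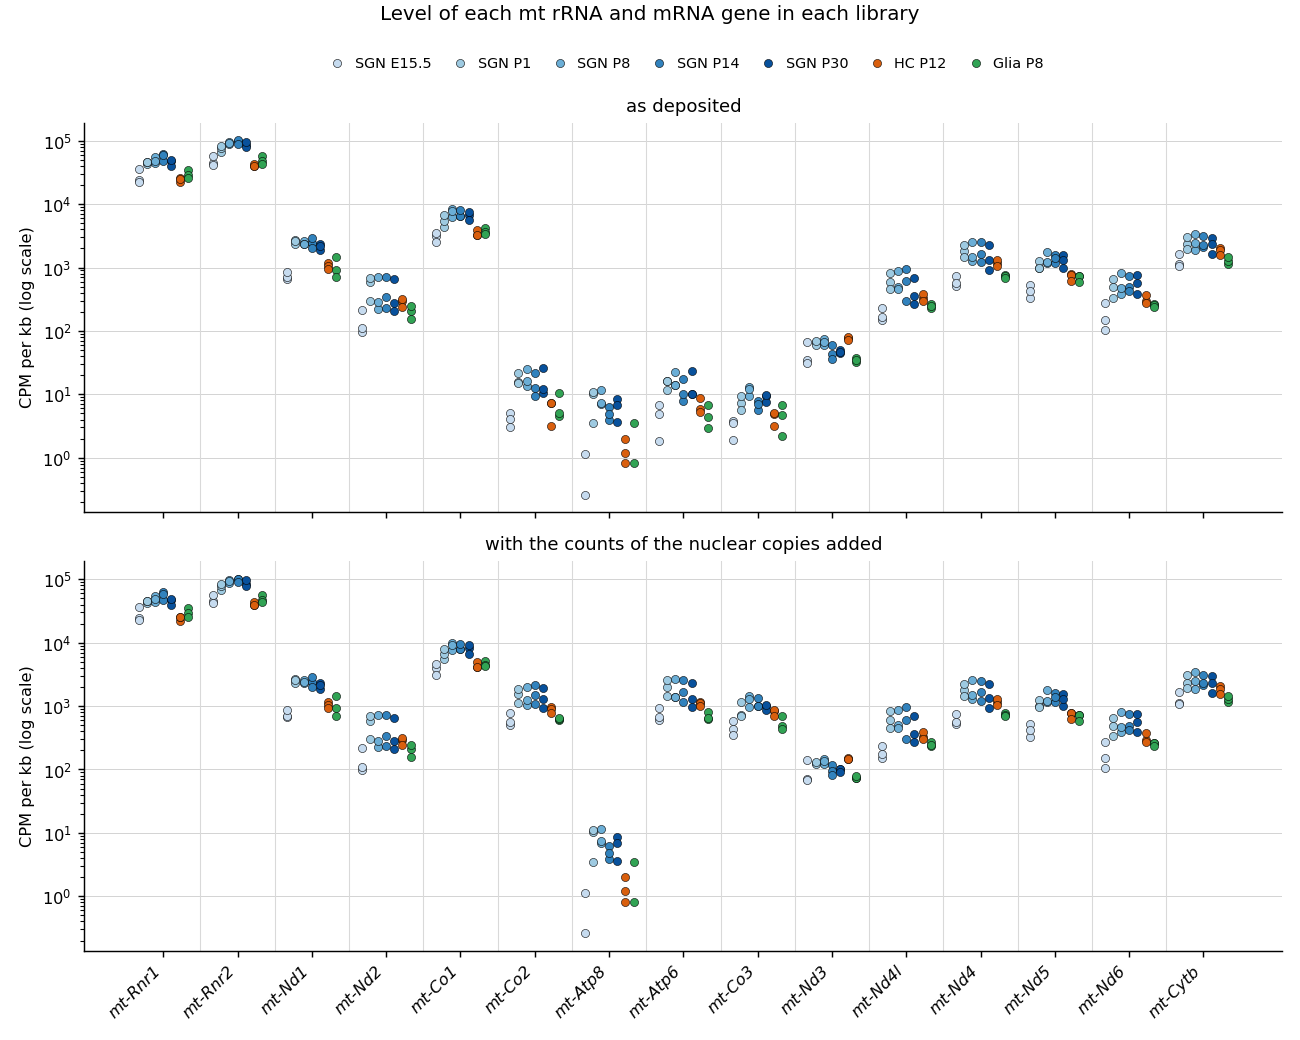
CPM per kb on a log scale (y axis) of the 2 rRNA and 13 mRNA genes in their order on the mitochondrial genome (x axis), as deposited (top) and with the counts of nuclear copies added (bottom). Each point is a library colored by group, libraries at 0 are not drawn, and adding the copies moves mt-Co2, mt-Atp6 and mt-Co3 from near mt-Atp8 to near mt-Nd5.

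tRNAs were nearly absent from the counts. These genes are 59 to 75 bases long. mt-Td, mt-Tk, mt-Tg and mt-Ts2 (tRNAs for aspartate, lysine, glycine and a serine) had 0 counts in all libraries, and 16 of the 22 tRNA genes, those 4 included, never exceeded 3. Since 3 counts is the limit that a count of 0 allows, no level is given for them. The remaining 6 were mt-Tf, mt-Tl1, mt-Te, mt-Tn, mt-Tc and mt-Tp, and only mt-Tp, the proline tRNA, reached 1 CPM in all replicates of a group. mt-Tp (chrM:15356-15422, - strand) is shown because it is the one tRNA whose level was tested.
mt-Tp: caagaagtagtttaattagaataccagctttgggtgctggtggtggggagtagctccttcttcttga

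Its counts were 11, 11 and 12 at E15.5, 109, 119 and 41 at P1, 175, 96 and 72 at P8, 138, 81 and 66 at P14 and 114, 45 and 30 at P30. HC libraries held 23, 23 and 26 and glial libraries 24, 3 and 1. The other tRNAs above 3 counts peaked at 31 (mt-Tf), 18 (mt-Tl1), 16 (mt-Te), 9 (mt-Tn) and 7 (mt-Tc).

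Between E15.5 and P1, 12 of the 16 tested genes rose and none fell at a limma-voom adjusted p under 0.05, where 11.1% of the 15113 genes tested were called in either direction and 6.79% higher. The median log2 fold change of the 16 genes was 1.68, against 0.07 for all genes. All 16 had a positive log2 fold change, from 0.76 to 4.17, and all 16 had an unadjusted p under 0.05. With the 2-fold limit used in the study, 9 of them passed, where 5.08% of all genes did so in that direction.

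Both rRNAs rose, with smaller log2 fold changes than those of most mRNAs, a difference that was not tested. mt-Rnr1 went from 23262, 34647 and 21682 CPM at E15.5 to 40604, 43542 and 43595 at P1, a log2 fold change of 0.84 ± 0.16 (SE; limma-voom adjusted p = 0.00409). mt-Rnr2 went from 70888, 90130 and 66273 CPM to 106016, 122624 and 132380, or 0.81 ± 0.14 (limma-voom adjusted p = 0.00185). The groups did not overlap for either rRNA.

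mt-Nd6 stood at 54.3, 143 and 77.8 CPM at E15.5 and at 253, 337 and 175 CPM at P1, a rise of 1.65 ± 0.43 on the log2 scale (limma-voom adjusted p = 0.0222). mt-Nd4l rose from 44.5, 69.6 and 49.7 to 177, 246 and 134 CPM, by 1.87 ± 0.49 (limma-voom adjusted p = 0.0216). Both subunits of complex I were thus at higher CPM in each P1 library than in any E15.5 library. mt-Nd1, another subunit of complex I, is named here after its values were seen. It rose from 633, 669.6 and 821 CPM to 2233, 2586 and 2476 CPM, a log2 fold change of 1.91 ± 0.16 (limma-voom adjusted p = 5.69e-06), and was called under each of the 25 alternative settings.

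The 2 largest rises belonged to genes with few deposited counts. mt-Atp8 had 0, 1 and 4 counts at E15.5 and 70, 18 and 49 at P1, and its log2 fold change was 4.17 ± 1.14 (limma-voom adjusted p = 0.0275). mt-Co2 went from 27, 66 and 48 counts to 495, 270 and 229, with a log2 fold change of 2.25 ± 0.66 (limma-voom adjusted p = 0.0381). With the counts of Gm28661 added, mt-Co2 stood at 349, 532 and 378 CPM at E15.5 and 1046, 1282 and 774 at P1, and the change was 1.43 ± 0.34 (limma-voom adjusted p = 0.0148). mt-Atp6 and mt-Co3, not called as deposited, passed with copies added, at 1.56 ± 0.38 and 1.04 ± 0.25 (limma-voom adjusted p = 0.017 and 0.014). mt-Nd3 did not pass on either scale, with 0.76 ± 0.33 as deposited and 0.64 ± 0.27 with the copy added (limma-voom adjusted p = 0.14 and 0.13).

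The number of calls rested on single libraries. It was 6 without E15.5 replicate 1, 6 without E15.5 replicate 3 and 7 without P1 replicate 2, and the 6 genes lost without either E15.5 library were mt-Nd2, mt-Co2, mt-Atp8, mt-Nd4l, mt-Nd6 and mt-Cytb. The summed level of 4 hemoglobin genes, markers of blood, was 134 CPM per kb in E15.5 replicate 1, 0 in E15.5 replicates 2 and 3 and at most 20.3 in any other library, and its part in the result was not tested.

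From P1 to P8, 2 of the 16 genes rose, where 11.1% of all genes tested were called in either direction and 6.59% higher (limma-voom adjusted p under 0.05). mt-Rnr2 reached 139002, 151852 and 148536 CPM at P8, a log2 fold change of 0.50 ± 0.12 (limma-voom adjusted p = 0.0149). mt-Co1 went from 6827, 8265 and 10303 CPM at P1 to 9643, 12865 and 11860 CPM at P8, or 0.67 ± 0.17 (limma-voom adjusted p = 0.0163). The highest P1 library of mt-Co1 overlapped the P8 range. Both calls were lost without P1 replicate 1, P8 replicate 2 or P8 replicate 3, and edgeR's quasi-likelihood test called 0 of the 16. mt-Rnr1 (0.35 ± 0.14), mt-Nd6 (0.38 ± 0.34) and mt-Nd4l (0.16 ± 0.37) did not pass, with limma-voom adjusted p of 0.136, 0.54 and 0.836. mt-Atp8, which passed the filter through the P8 SGNs, was not called either (0.39 ± 0.66). With copies added, mt-Co3 also rose, from 564, 537 and 921 CPM to 771, 1138 and 1024 CPM (0.78 ± 0.21, limma-voom adjusted p = 0.0227).

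From P8 to P14 and from P14 to P30 none of the 16 genes passed (limma-voom adjusted p under 0.05), where 0.801% and 0.086% of all genes were called. An unadjusted p under 0.05 was reached by 1 gene in the first step and 0 in the second, and edgeR and DESeq2 also called 0. Between P8 and P14 the log2 fold changes lay between -0.66 (mt-Atp8) and 0.36 (mt-Tp), and between P14 and P30 between -0.92 (mt-Tp) and 0.41 (mt-Co3). For mt-Rnr2 they were 0.17 ± 0.12 and -0.15 ± 0.12 (limma-voom adjusted p = 0.672 and 0.946), and for mt-Rnr1 0.30 ± 0.14 and -0.29 ± 0.14 (limma-voom adjusted p = 0.43 and 0.798). mt-Nd6 gave 0.14 ± 0.34 and 0.06 ± 0.34, and mt-Nd4l 0.04 ± 0.38 and -0.41 ± 0.40 (limma-voom adjusted p from 0.933 to 0.998). mt-Atp8, which passed the filter through the P8 SGNs, gave -0.66 ± 0.72 and 0.33 ± 0.77. Standard errors of several genes were too wide to tell a 2-fold change from none. Among them were mt-Atp8, mt-Nd2 (0.21 ± 0.49 and -0.14 ± 0.51) and mt-Tp (0.36 ± 0.52 and -0.92 ± 0.58).

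Over the whole course from E15.5 to P30, 14 of the 16 genes rose and none fell, where 41.4% of all genes were called in either direction and 22.1% higher (limma-voom adjusted p under 0.05). The comparison shares its E15.5 libraries with the step to P1. All 14 also passed the 2-fold limit, as did 18.4% of all genes in that direction. mt-Rnr1 rose by 1.21 ± 0.16 and mt-Rnr2 by 1.33 ± 0.14 on the log2 scale (limma-voom adjusted p = 2.21e-05 and 1.45e-06). mt-Nd6 rose to 391, 201 and 296 CPM (2.21 ± 0.43, limma-voom adjusted p = 0.000659) and mt-Nd4l to 202, 79.9 and 106 CPM (1.66 ± 0.50, limma-voom adjusted p = 0.0138). The largest rises were again those of mt-Atp8, with 65, 15 and 35 counts at P30 (4.23 ± 1.15, limma-voom adjusted p = 0.00795), and mt-Co2 (2.44 ± 0.67, limma-voom adjusted p = 0.00815). With the copies added, mt-Co2 rose by 1.63 ± 0.35 (limma-voom adjusted p = 0.00148). mt-Nd3 (0.62 ± 0.34, limma-voom adjusted p = 0.152) and mt-Tp (2.01 ± 0.81, limma-voom adjusted p = 0.057) did not pass.

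**Figure D4:**
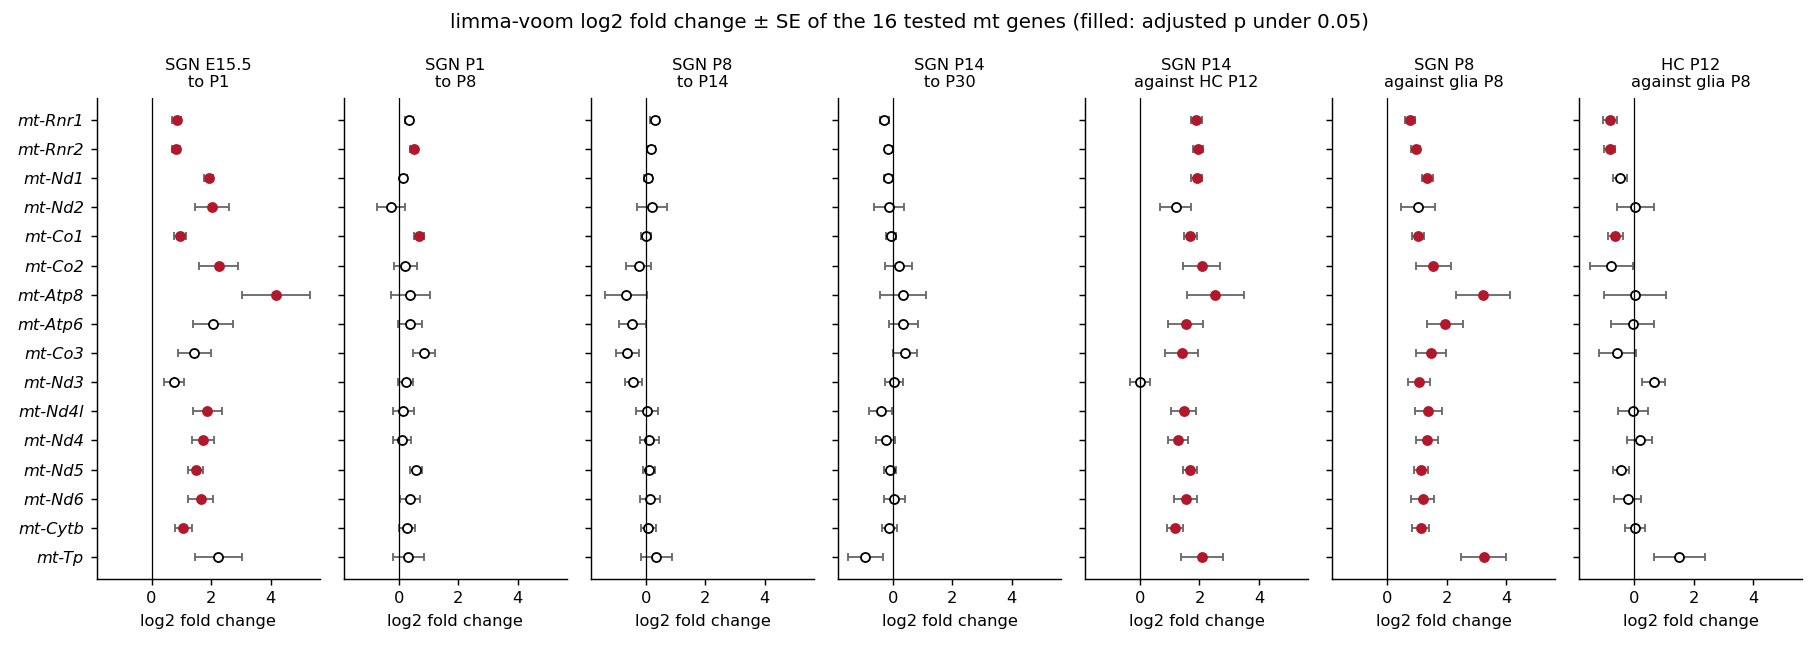
limma-voom log2 fold change ± SE (x axis) of the 16 tested mitochondrial genes (y axis) in 7 comparisons; filled points have an adjusted p under 0.05. Filled points number 12 from E15.5 to P1, 2 from P1 to P8 and 0 in the later steps, and positive values mean higher at the later age or in the cell type named first.

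Against HCs, the mean of the 5 SGN ages was higher for 13 of the 16 genes and lower for none, where 52.8% of the 17531 genes tested were called in either direction and 24.6% higher (limma-voom adjusted p under 0.05). The median log2 fold change of the 16 was 1.17, against 0.02 for all genes. None of the 16 passed the 4-fold limit at an adjusted p under 0.01 that the study used between cell types, which 10.5% of all genes passed in that direction. mt-Rnr1 was higher by 1.36 ± 0.17 and mt-Rnr2 by 1.47 ± 0.15 on the log2 scale (limma-voom adjusted p = 6.98e-07 and 2.80e-08). mt-Nd6 was higher by 1.00 ± 0.32, mt-Nd4l by 0.94 ± 0.36 and mt-Co2 by 1.72 ± 0.54 (limma-voom adjusted p = 0.013, 0.0329 and 0.0107). The 13 genes include mt-Atp8, which passed the filter through the P8 SGNs. These are part of the mean, so no test of mt-Atp8 is given here. The number of calls was 8 without HC replicate 1, 8 without HC replicate 2 and 5 without HC replicate 3.

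SGNs at P14, the age nearest to the HCs, were higher for 14 of the 16 genes, where 44.5% of all genes were called in either direction and 22.1% higher. These libraries are among those of the comparison above. HC libraries held 62237, 68319 and 63064 CPM of mt-Rnr2, against 158218, 160020 and 142358 CPM in the P14 SGNs (1.96 ± 0.16, limma-voom adjusted p = 1.02e-08). They held 21038, 24737 and 24194 CPM of mt-Rnr1, against 59603, 45077 and 56518 (1.90 ± 0.18, limma-voom adjusted p = 5.88e-08). For both rRNAs the lowest SGN library lay above the highest HC library.

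mt-Nd6 stood at 153, 192 and 141 CPM in HCs and 388, 256 and 219 CPM in the P14 SGNs (1.54 ± 0.38, limma-voom adjusted p = 0.00221). mt-Nd4l stood at 96.7, 115 and 87.9 CPM in HCs and 280.1, 88.9 and 179.8 CPM in SGNs (1.47 ± 0.42, limma-voom adjusted p = 0.00691), and the lowest SGN library overlapped the HC range. The largest differences were those of mt-Atp8, with 3, 7 and 3 counts in HCs and 33, 19 and 19 in SGNs (2.54 ± 0.95, limma-voom adjusted p = 0.035), and mt-Tp (2.08 ± 0.70, limma-voom adjusted p = 0.0193). Without P14 replicate 1, 8 genes were called, and without HC replicate 3, 9 were.

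The genes not called were mt-Nd2 (1.21 ± 0.53, limma-voom adjusted p = 0.0674) and mt-Nd3, another complex I subunit, both named after their values were seen. HCs held 26.7, 28.0 and 25.2 CPM of mt-Nd3 and P14 SGNs 20.97, 14.95 and 12.8 CPM, so that each HC library lay above each SGN library in CPM, while the log2 fold change after TMM scaling was -0.003 ± 0.33 (limma-voom adjusted p = 0.995). With Gm28438 added, the values were 50.3, 53.7 and 51.2 CPM in HCs and 41.6, 33.5 and 28.8 CPM in SGNs, with 0.13 ± 0.27 (limma-voom adjusted p = 0.714).

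Against glial cells, the mean of the SGN ages was higher for 9 of the 16 genes and lower for none, where 49.1% of all genes were called in either direction and 26.3% higher (limma-voom adjusted p under 0.05). The median log2 fold change of the 16 was 0.81, against 0.22 for all genes. mt-Rnr1 was higher by 0.55 ± 0.16 and mt-Rnr2 by 0.65 ± 0.14 (limma-voom adjusted p = 0.00744 and 0.000494). The largest difference was in mt-Tp (2.63 ± 0.69, limma-voom adjusted p = 0.0035), which passed the 4-fold limit, as did 14.3% of all genes in that direction. The 9 genes include mt-Atp8, for which no test is given, since it passed the filter through the P8 SGNs of this mean. mt-Nd6 (0.79 ± 0.35) and mt-Nd4l (0.89 ± 0.41) did not pass (limma-voom adjusted p = 0.0711 and 0.0743). Without glial replicate 3, 5 genes were called, and with sample quality weights in voom, 2 were (mt-Rnr2 and mt-Nd1).

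At the matched age of P8, SGNs were higher than glial cells for 15 of the 16 genes and lower for none (limma-voom adjusted p under 0.05). Over all genes, 43.0% were called in either direction and 24.5% higher. The 15 include mt-Atp8, which passed the filter through these SGNs, so its call carries that choice. The median log2 fold change of the 16 was 1.27, against 0.22 for all genes. Glial libraries held 90074, 75133 and 68828 CPM of mt-Rnr2 and 33204, 27739 and 24577 CPM of mt-Rnr1. The P8 SGNs held 139002, 151852 and 148536 CPM of mt-Rnr2 and 42157, 52078 and 46062 CPM of mt-Rnr1, with no overlap for either rRNA. The differences were 0.97 ± 0.15 for mt-Rnr2 and 0.78 ± 0.17 for mt-Rnr1 (limma-voom adjusted p = 3.76e-05 and 0.000907).

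mt-Nd6 stood at 137, 134 and 122 CPM in glial cells and 422, 199 and 246 CPM in the SGNs (1.19 ± 0.39, limma-voom adjusted p = 0.0179). mt-Nd4l stood at 67.6, 79.7 and 73.1 against 258, 148 and 134 CPM (1.39 ± 0.45, limma-voom adjusted p = 0.0156). mt-Atp8 had 14, 2 and 0 counts in glial cells and 84, 47 and 43 in the SGNs, the group through which it passed the filter, so no test of it is given here. mt-Tp had 24, 3 and 1 counts against 175, 96 and 72 (3.24 ± 0.77, limma-voom adjusted p = 0.00188), and it also passed the 4-fold limit, as did 13.4% of all genes in that direction. For mt-Nd6, mt-Nd4l and mt-Tp, the lowest P8 SGN library lay above the highest glial library in CPM. mt-Nd2 was the gene not called, at 1.04 ± 0.56 (limma-voom adjusted p = 0.145). Glial replicate 1, the glial library with the highest level of SGN markers, also held the most mt-Rnr2, mt-Atp8 and mt-Tp of the 3, and without it mt-Nd3, mt-Nd4l and mt-Nd6 were not called. With sample quality weights, 5 genes were called (mt-Rnr1, mt-Rnr2, mt-Nd1, mt-Co1 and mt-Nd5).

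Few mitochondrial genes were called between HCs and glial cells. Of the 16, 3 were lower in HCs and none higher, where 44.8% of all genes were called in either direction and 19.7% lower (limma-voom adjusted p under 0.05). They were mt-Rnr2 (-0.82 ± 0.19), mt-Rnr1 (-0.81 ± 0.22) and mt-Co1 (-0.64 ± 0.25), with limma-voom adjusted p of 0.00162, 0.00564 and 0.044. For the 2 rRNAs in CPM, the highest HC library of mt-Rnr1 (24737) lay above the lowest glial library (24577), and the ranges of mt-Rnr2 did not meet. In CPM, each HC library lay above each glial library for mt-Nd3, mt-Nd4l, mt-Nd4, mt-Nd6 and mt-Cytb, and no mRNA lay wholly below. For mt-Nd4 the ranges were 1446 to 1801 and 943 to 1050 CPM, with 0.18 ± 0.43 after TMM scaling (limma-voom adjusted p = 0.752). For mt-Cytb they were 1793 to 2362 and 1318 to 1651 CPM, with 0.02 ± 0.34 (limma-voom adjusted p = 0.966). Without TMM factors, on library size only, none of the 3 called genes passed and mt-Nd3 was called higher in HCs. Without glial replicate 1, mt-Rnr1 and mt-Co1 were not called and mt-Tp was, and mt-Co1 was also lost with the nuclear copies added (-0.58 ± 0.24, limma-voom adjusted p = 0.0555). mt-Nd6 (-0.21 ± 0.45), mt-Atp8 (0.03 ± 1.04) and mt-Nd4l (-0.04 ± 0.51) did not pass (limma-voom adjusted p from 0.731 to 0.983).

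The balance among mitochondrial genes was also compared, as the share of each gene in the mitochondrial counts of a library, a scale that nuclear genes do not enter. mt-Rnr2 took 64.1% to 71.4% and mt-Co1 4.07% to 5.70% in the 21 libraries, with no group apart from the rest. mt-Nd1 took 0.617%, 0.495% and 0.858% at E15.5 and 0.865% to 1.38% in the 12 later SGN libraries, so the 2 ranges did not overlap. mt-Nd3 took 0.0280%, 0.0264% and 0.0257% in HCs, above each of the other 18 libraries, which ranged from 0.00575% to 0.0173%.

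Several subunits varied widely between libraries of one age. mt-Nd2 took 0.371% and 0.384% of the mitochondrial counts in P1 replicates 1 and 2 but 0.159% in replicate 3. At P8 it took 0.362%, 0.103% and 0.136%, at P14 0.306%, 0.107% and 0.158% and at P30 0.333%, 0.121% and 0.130%. Replicate 1 was thus the highest library or near it at each of these ages, and the highest library exceeded the lowest by 2.42 to 3.51 times on this scale.

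mt-Nd4 showed the same libraries high, with 1.52%, 1.65% and 1.02% at P1, 1.71%, 0.778% and 0.935% at P8, 1.43%, 0.742% and 1.02% at P14 and 1.52%, 0.716% and 0.824% at P30. mt-Nd6 and mt-Cytb followed: at P8, for example, mt-Nd6 took 0.205%, 0.0884% and 0.113% and mt-Cytb 1.92%, 0.957% and 1.30%. mt-Co1 ran the other way at P1, P8 and P14, where replicate 1 had the lowest share of the 3 (4.17%, 4.69% and 4.198%). In HCs the highest library exceeded the lowest by 1.31 times in CPM of mt-Nd2, against 1.58 times in the glial libraries of 86 to 125 cells and 2.32 to 3.20 times within the 4 postnatal SGN ages. Total counts and the number of cells (195, 140, 127 and 114 from P1 to P30) were also highest in replicate 1 at each of these ages, and their part in the pattern was not tested.

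**Figure D5:**
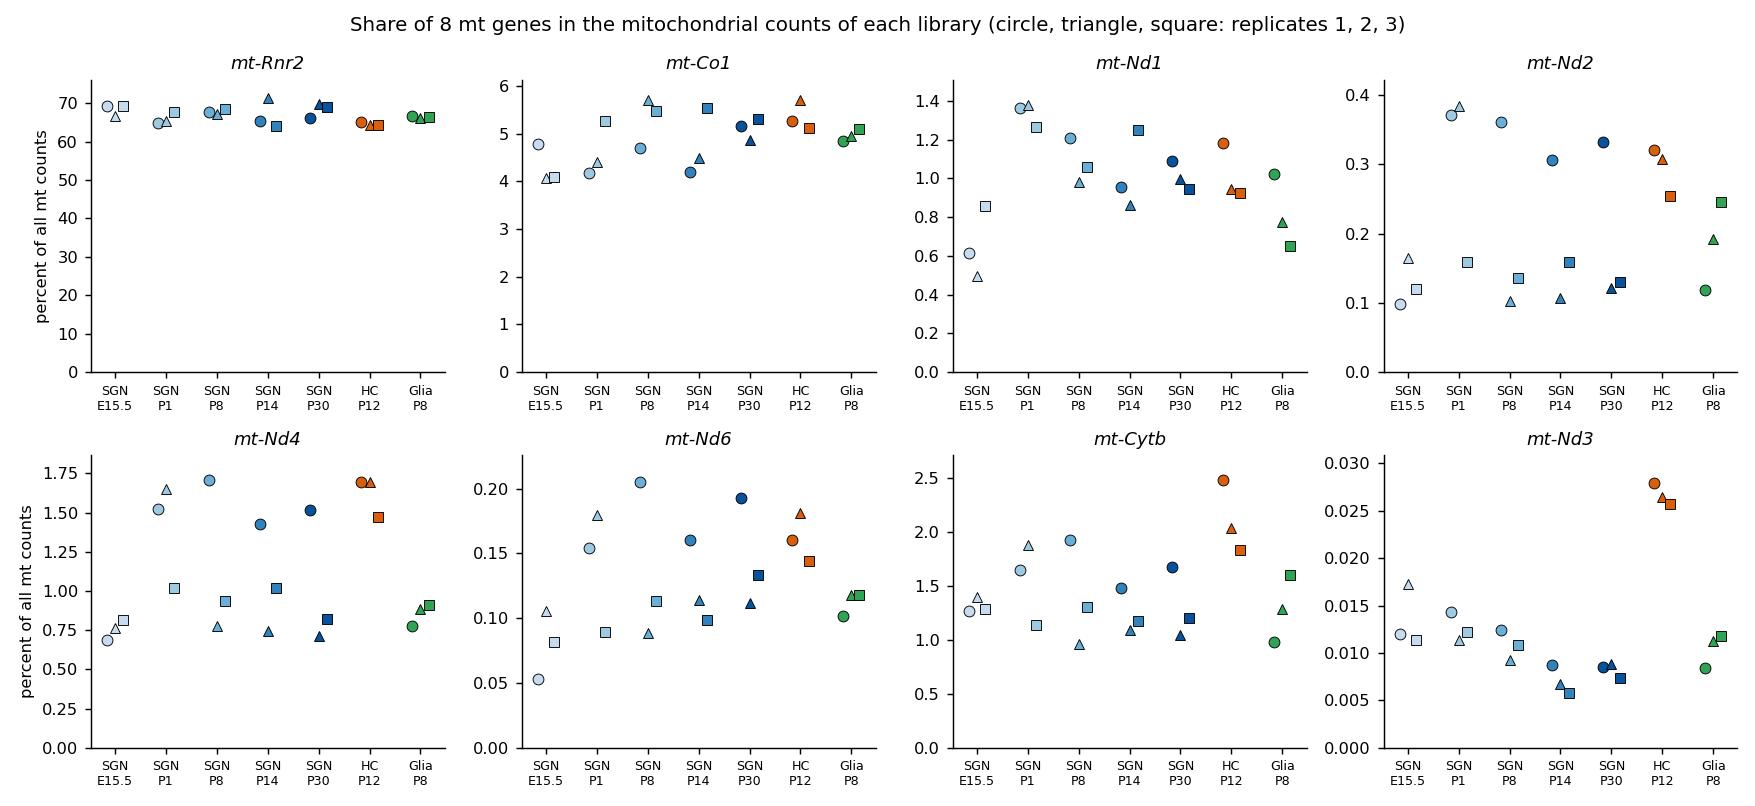
Percent of the mitochondrial counts of a library (y axes, each from 0) taken by 8 genes, by group; each point is a library, with circles, triangles and squares for replicates 1, 2 and 3. mt-Nd2, mt-Nd4, mt-Nd6 and mt-Cytb are split within the postnatal SGN ages, with replicate 1 high, while mt-Nd3 is highest in the 3 HC libraries (0.0257% to 0.0280%).

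Nuclear genes of the same machinery were read in the same fits, from lists set by symbol. The 84 nuclear subunits of oxidative phosphorylation took 0.548%, 0.595% and 0.581% of all counts at E15.5, 0.876%, 1.01% and 0.920% at P1 and 1.0604%, 1.20% and 1.24% at P8. Of the 80 tested, 26 rose and none fell from E15.5 to P1, where 6.79% of all genes rose, and 16 rose and none fell from P1 to P8, where 6.59% did (limma-voom adjusted p under 0.05). From P8 to P14 1 rose, and from P14 to P30 0 passed, where 0.801% and 0.086% of all genes were called. Over E15.5 to P30, 69 rose and none fell, where 22.1% of all genes rose, with a median log2 fold change of 1.498 over the list against -0.01 for all genes. The P14 SGNs were higher than HCs for 75 of the 80, against 22.1% of all genes, and the P8 SGNs higher than P8 glial cells for 70, against 24.5%, with none lower in either comparison. HCs and glial cells differed in 5 genes in each direction, where 44.8% of all genes were called. These comparisons use the same libraries as those of the mitochondrial genes.

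Fewer of the 78 genes of mitochondrial ribosomal proteins passed. Of the 76 tested, 2 rose and 2 fell from E15.5 to P1, where 11.1% of all genes were called in either direction and 6.79% higher. From E15.5 to P30, 27 rose and 1 fell, where 41.4% were called in either direction and 22.1% higher. Over that course the rises exceeded the share of all genes that rose, while the calls in either direction did not exceed theirs. The median log2 fold change of the list was 0.75, against -0.01 for all genes. They took 0.143% ± 0.0198 of all counts at E15.5 and 0.139% ± 0.001 at P1 (SD, n = 3), where the rRNAs of the same ribosome took 10.2% ± 1.97 and 16.3% ± 1.49. P8 SGNs were higher than glial cells for 32 of the 76 and lower for none, where 24.5% of all genes were higher.

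Of 35 nuclear genes for copying, transcribing and processing the mitochondrial genome, 33 were tested between ages. From E15.5 to P1, 1 rose and none fell, a smaller share than the 6.79% of all genes that rose and the 11.1% called in either direction. The gene was Ppargc1a, a coactivator known to drive mitochondrial biogenesis. Ppargc1a stood at 25.1, 36.5 and 47.5 CPM at E15.5 and 225, 342 and 278 CPM at P1, with no overlap (3.06 ± 0.27, limma-voom adjusted p = 1.33e-05). It rose again to 327, 396 and 359 CPM at P8 (0.60 ± 0.17, limma-voom adjusted p = 0.0295), together with Lrpprc, which stabilizes mitochondrial mRNAs (0.70 ± 0.18, limma-voom adjusted p = 0.0202). These were the only 2 of the 33 called from P1 to P8, a share close to the 6.59% of all genes that rose. Ppargc1a stood at 28.8, 26.4 and 29.5 CPM in HCs and 105, 74.7 and 40.2 CPM in glial cells. It was higher in P14 SGNs than in HCs by 4.38 ± 0.36 and in P8 SGNs than in glial cells by 2.42 ± 0.28 on the log2 scale (limma-voom adjusted p = 1.20e-08 and 1.39e-06). HCs held less of it than glial cells did (-1.87 ± 0.43, limma-voom adjusted p = 0.00134).

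For Tfam and Polrmt no change passed. Tfam, which packs and activates the mitochondrial genome, stood at 20.3, 16.1 and 7.95 CPM at E15.5 and 11.001, 14.1 and 23.8 CPM at P1 (0.29 ± 0.44, limma-voom adjusted p = 0.71), and passed in none of the 10 comparisons. Polrmt, the mitochondrial RNA polymerase, stood at 13.7, 30.7 and 32.4 CPM and then 17.4, 18.0 and 20.1 CPM (-0.31 ± 0.34, limma-voom adjusted p = 0.586), and passed in none either. From E15.5 to P30, 10 of the 33 rose and 3 fell, a share close to the 41.4% called over all genes. The 2 largest rises were those of Ppargc1a (3.92 ± 0.27) and Fastkd5 (3.45 ± 1.18), a protein of mitochondrial RNA granules, and the 2 largest falls were those of Polg2 (-2.17 ± 0.57), a subunit of the mitochondrial DNA polymerase, and Nrf1 (-1.31 ± 0.42), a transcription factor of nuclear genes for mitochondria (limma-voom adjusted p = 2.61e-08, 0.0281, 0.00649 and 0.0191).

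P8 SGNs were higher than glial cells for 5 of the 34 tested and lower for 7, a smaller share than the 43.0% called over all genes. Tfb2m, a mitochondrial transcription initiation factor named after its values were seen, was among the lower ones (-1.04 ± 0.34, limma-voom adjusted p = 0.0169). The higher genes were led by Top1mt, the mitochondrial topoisomerase, with 9.83, 10.04 and 5.51 CPM in SGNs and 5.06, 0 and 0 in glial cells (5.27 ± 1.14, limma-voom adjusted p = 0.000852). Next was Ppargc1b, with 29.8, 22.4 and 30.2 CPM in SGNs and 4.35, 0.502 and 0.482 in glial cells (4.67 ± 0.77, limma-voom adjusted p = 6.30e-05). For both genes the highest glial value was in glial replicate 1, the glial library with the most SGN markers, and its part was not tested. The lower ones were led by Polg2 (-2.26 ± 0.65, limma-voom adjusted p = 0.00805) and Gabpa, a factor of nuclear genes for mitochondria, at 42.9, 28.3 and 39.3 CPM in SGNs and 174, 184 and 217 CPM in glial cells (-2.26 ± 0.24, limma-voom adjusted p = 4.00e-07). Against HCs, the P14 SGNs were higher for 10 of the 34 and lower for 3, where 44.5% of all genes were called. After Ppargc1a the largest positive difference was that of Esrra, a nuclear receptor of genes for mitochondria (2.80 ± 0.75, limma-voom adjusted p = 0.00431). The 2 largest negative ones were those of Mterf4, a factor of mitochondrial ribosome assembly (-1.76 ± 0.47), and Polg2 (-1.71 ± 0.57), with limma-voom adjusted p of 0.00453 and 0.0189.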

How the data were processed

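RNA-Seq of 21 libraries was analysed from 1 deposited table of counts per gene, with no normalization, in which every column of a library was matched to its sample and group by name. The authors extracted RNA with a PicoPure kit, amplified it with Ovation RNA-Seq System V2, made libraries with Ovation Rapid DR, mapped reads to mm10 with STAR 2.4.0i and counted them on GENCODE vM15 with featureCounts. Strand and multimapping settings are not given in the sources used here. Symbols, positions and sequences came from GENCODE M21 on GRCm38, the assembly also named mm10, and the deposited length of each of the 37 genes equaled its annotated length.

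CPM was the count over the total of the library, and CPM per kb divided it by the deposited length. TPM served only as an alternative scale for the mitochondrial share, since Gm23935, a gene of 57 bases, took 8.17% to 68.1% of summed TPM. Nuclear copies were pseudogenes with at least 50% of their 50-base words identical to a mitochondrial gene.

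Following the methods of the study, counts were normalized by TMM (edgeR 4.0.16) and fitted with limma-voom (limma 3.58.1, R 4.3.3), two-sided, with Benjamini-Hochberg adjustment over all genes tested in a comparison. Ages were fitted on 15 SGN libraries (15113 genes that exceeded 1 CPM in each replicate of at least 1 age) and cell types on 21 libraries (17531 genes). Scripts were tested on simulated counts. Alternatives were other scalings, no filter, edgeR's quasi-likelihood test, DESeq2 1.42.0, quality weights, a replicate block, single libraries left out and, chosen after seeing the data, copies added. The members, lists and tests were chosen with earlier results of these data known. Fold changes are given for mt-Rnr1, mt-Rnr2, mt-Nd6, mt-Atp8, mt-Nd4l, Tfam, Polrmt, Ppargc1a and, in each list, the 2 largest rises and falls that passed. No p-value of mt-Atp8 is given where the P8 SGNs entered the comparison. Other genes are named after their values were seen.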

Additional observations from a re-analysis of the deposited data

How the results depend on the processing

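Low counts limit the tRNAs, mt-Atp8 and, as deposited, mt-Co2, mt-Atp6 and mt-Co3. The last 3 had at least 98.2% of the counts of their pairs on the nuclear copy. For HCs the calls rest on 3 libraries of one pool size. The 82 calls of mitochondrial genes over the 10 comparisons gave 2371 values under the alternatives, of which 258 were not called and 0 had the other sign. Genes that were not called could change sign, as mt-Co3 did from P14 to P30 with copies added (-0.17). The number of mitochondrial genes called, by limma-voom unless another test is named, changed by more than 1.5 times under these settings. The cause was not tested. With no filter, every mitochondrial gene with a count entered the fit, so those numbers are not out of the 16. From E15.5 to P1 it was 3 with no filter on low counts and 6 with voom sample quality weights. From P1 to P8 it was 0 on library size only, 1 with no filter, 0 with edgeR's quasi-likelihood test and 1 with DESeq2's Wald test. From P8 to P14 it was 1 with no filter (mt-Co1, lower), and from E15.5 to P30 it was 8 with no filter and 9 with quality weights. For the mean of the SGN ages against HCs it was 8 with DESeq2 size factors, 5 on library size only and 7 with no filter, and against glial cells it was 2 with quality weights. For P14 SGNs against HCs it was 5 on library size only and 8 with no filter, for P8 SGNs against glial cells 5 with quality weights, and for HCs against glial cells 1 on library size only. Library size only moved the median log2 fold change of all genes to -0.48 from E15.5 to P30, -0.53 for the mean of the SGN ages against HCs, -0.75 for P14 SGNs against HCs and 0.64 for HCs against glial cells.

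With single libraries left out, the number called ranged from 6 to 13 from E15.5 to P1, 0 to 3 from P1 to P8, 12 to 15 from E15.5 to P30, 5 to 13 for the mean of SGN ages against HCs and 5 to 11 against glial cells, 8 to 14 for P14 SGNs against HCs, 11 to 15 for P8 SGNs against glial cells and 2 to 4 for HCs against glial cells, with 0 in both later age steps. Deviations of same-numbered libraries from their group means correlated with r over 0.1 in all 3 pairs for P8 and P30 (0.39, 0.18 and 0.15). These ages were not compared with each other, though both enter the mean of the SGN ages. No 2 groups compared with each other passed this rule, so the numbers were not taken as pairs. The correlations were 0.37, 0.06 and 0.16 for P1 and P8. They were 0.32, 0.14 and 0.02 for P8 and P14, and 0.38, 0.23 and 0.09 for P14 and P30. All 6 libraries of P8 and P30 correlated best with their own number, as did 5 of 6 for P14 and P30, 3 of 6 for P8 and P14 and for P1 and P8, and 2 of 6 for E15.5 and P1. With a replicate block, 14, 2, 0, 0 and 15 genes were called in the age comparisons in the order above, with E15.5 to P30 last. The replicate block gave 13 for the mean of SGN ages against HCs, 12 against glial cells, 14 for P14 SGNs against HCs, 16 for P8 SGNs against glial cells and 3 for HCs against glial cells.

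Without the rRNA genes, the mitochondrial share of counts was 0.992%, 2.30%, 2.81%, 2.78% and 2.48% from E15.5 to P30, 1.32% in HCs and 1.23% in glial cells. As a share of summed TPM the mean was 9.71% for E15.5 (8.35% to 10.7% over its libraries), 25.6% for P1 (20.8% to 33.6%), 26.9% for P8 (17.8% to 40.6%), 33.9% for P14 (16.7% to 43.4%) and 21.8% for P30 (19.3% to 24.04%). HCs had 19.5% (17.5% to 21.2%) and glial cells 10.2% (8.46% to 12.3%), so on this scale HC libraries overlapped SGN libraries of each postnatal age. Over protein-coding and mitochondrial counts alone the share was 22.9% at P8, 24.1% at P14 and 10.7% in HCs. With the nuclear copies added, the mean rRNA count per mRNA count was 8.98, 6.73, 6.86, 7.62 and 7.30 from E15.5 to P30, 5.71 in HCs and 7.82 in glial cells.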
